A study of Mus musculus with 6 samples.

Results

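Prostaglandins and leukotrienes are made from arachidonic acid by a short chain of enzymes, and 10 genes of that chain were examined: Pla2g4a, Ptgs1, Ptgs2, Ptges, Ptgds, Hpgds, Alox5, Alox5ap, Ltc4s and Lta4h. They were chosen by symbol, for the step each encodes, and all 10 were present among the 35122 genes of the count table. RNA was sequenced from epididymal adipocytes, the top layer obtained after collagenase digestion of the fat pad, from 3 mice of the control group and 3 of the aPU.1KO group, each giving 1 library. All were male C57BL/6 mice on chow with the PU.1 fl/fl genotype, in which 1 exon of Spi1, the gene of the transcription factor PU.1, lies between loxP sites. Control mice kept that exon, and aPU.1KO mice also carried AdipoqCre, which expresses Cre recombinase from the adiponectin promoter, active in adipocytes. Their labelled age was 10 to 11 months. The study's text describes mice of more than a year. Within each group, mice are called 1 to 3 here, following their label order, and an equal number in both groups is not a pairing. The study's text describes its control mice as littermates, and the labels do not say which of these mice share a litter, although the mouse numbers of the 2 groups lie close together.

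Phospholipase A2 frees arachidonic acid from membrane lipids. Cyclooxygenases then turn it into prostaglandin H2, from which terminal synthases make prostaglandins E2, D2, F2 alpha and I2 and thromboxane, while 5-lipoxygenase and its helper protein FLAP turn it into leukotriene A4, the source of leukotrienes B4 and C4. In fat, prostaglandin E2 restrains lipolysis through its receptor on adipocytes, and macrophages and mast cells of the tissue are known producers of leukotrienes and prostaglandin D2.

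The genes of leukotriene A4 formation, Alox5 and Alox5ap, cyclooxygenase-2 and the hematopoietic prostaglandin D synthase had lower mean levels in aPU.1KO adipocytes, the prostaglandin E synthase Ptges had a higher one, and Ltc4s and Lta4h, the enzymes that use leukotriene A4, differed little. Fitted log2 fold changes (aPU.1KO over control) ran from -2.91 for Hpgds to 1.04 for Ptges, and 8 of the 9 members with enough counts for a test were negative, with a median of -0.79 against 0.01 over all 13925 genes tested. By the quasi-likelihood test of edgeR, adjusted by Benjamini-Hochberg, 0 of the 9 passed an adjusted p of 0.05, as did 0.237% of all genes tested. At an unadjusted p under 0.05, 4 members were lower (Ptgs2, Hpgds, Alox5 and Alox5ap; 13.7% of all genes were lower by this rule) and 1 was higher (Ptges; 11.9% of all genes). The count of lower members by this rule dropped to 2 when control mouse 1 was left out (8.1% of all genes in that setting) and reached 6 when aPU.1KO mouse 3 was left out (14.2%). DESeq2, the test named in the study's methods, called 3 members lower (Ptgs2, Hpgds and Alox5ap, against 8.73% of all genes) and Ptges higher (4.69% of all genes). These p-values set the difference between the groups against the spread among the mice within them, 3 in each. In RNA from a bulk fraction fewer cells of a type and less RNA per cell cannot be told apart.

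Total counts were between 20550252 and 24310144 in 5 libraries and 69283842 in that of control mouse 1. Spi1 itself was at 24.3, 6.35 and 26.7 CPM (counts scaled to library size with TMM factors) in control mice 1, 2 and 3, and at 3.20, 1.22 and 4.17 CPM in the aPU.1KO mice. Its log2 fold change was -2.75 (SE 0.64, adjusted p = 0.0788 by edgeR's quasi-likelihood test and 0.000115 by DESeq2). These are counts of the whole gene, so reads from exons that Cre does not remove are included. Control mouse 2 stood apart from the other control mice in Spi1 and in the markers of macrophages, whose summed level was 1904, 563 and 1846 CPM in the control mice and 394, 286 and 378 CPM in the aPU.1KO mice. Without control mouse 2, 8.34% of all genes passed an adjusted p of 0.05 with edgeR.

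Stretches just before the start of the 4 members that had an unadjusted p under 0.05 and a promoter entry are shown here, since these genes were among those with the largest differences and PU.1 is a DNA-binding factor that recognises purine-rich sites around GAGGAA. The sequences are from RefSeq, build GRCm38.p6, written on the strand of the gene, with the letters GAGGAA or their reverse complement TTCCTC in capitals. Hpgds is shown at chr6:65144731-65144980 (minus strand), Alox5 at chr6:116461179-116461428 (minus strand), Ptgs2 at chr1:150099781-150100030 (plus strand) and Ptges at chr2:30903298-30903547 (minus strand). The Ptges window lies inside the longer span that the annotation of the counts gives this gene, and the Hpgds window, with its match, partly inside that of Hpgds.
Hpgds: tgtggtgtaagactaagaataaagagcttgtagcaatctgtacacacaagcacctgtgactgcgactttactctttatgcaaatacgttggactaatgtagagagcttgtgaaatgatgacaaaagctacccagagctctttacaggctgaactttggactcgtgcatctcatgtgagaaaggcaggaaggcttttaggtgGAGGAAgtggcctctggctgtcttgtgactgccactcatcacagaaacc
Alox5: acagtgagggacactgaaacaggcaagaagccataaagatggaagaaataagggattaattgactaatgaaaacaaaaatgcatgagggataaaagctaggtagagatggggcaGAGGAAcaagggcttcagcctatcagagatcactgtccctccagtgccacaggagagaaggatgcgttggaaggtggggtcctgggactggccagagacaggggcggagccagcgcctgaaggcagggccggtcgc
Ptgs2: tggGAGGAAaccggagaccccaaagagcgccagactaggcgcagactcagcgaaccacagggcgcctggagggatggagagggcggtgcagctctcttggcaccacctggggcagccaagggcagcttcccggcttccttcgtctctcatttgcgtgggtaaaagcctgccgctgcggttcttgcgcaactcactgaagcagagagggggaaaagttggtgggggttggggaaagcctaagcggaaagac
Ptges: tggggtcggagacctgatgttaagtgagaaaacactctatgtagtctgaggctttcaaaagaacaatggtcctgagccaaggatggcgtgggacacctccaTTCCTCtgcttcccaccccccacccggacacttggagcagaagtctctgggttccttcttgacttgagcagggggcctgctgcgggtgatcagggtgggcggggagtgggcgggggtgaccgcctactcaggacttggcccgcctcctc
In windows of 300 bases, from 250 before to 50 after the start, GAGGAA was searched on both strands and occurred near 7 of the 9 members with an entry (Alox5ap has none), against 28.3% of 32851 RefSeq promoters. The first base of the match lay at -49 in Hpgds, -136 in Alox5, -247 in Ptgs2, -24 in Ptgs1 and, on the opposite strand, at -149 in Ptges, -126 in Lta4h and 17 in Ltc4s, counted from the start. Members with a match thus included the gene with the largest negative value, the gene with the positive value and Lta4h, which barely differed. The letters CGGAAG, found in sites of the wider ETS family and sharing GGAA with the first motif, were in the windows of 0 members and of 16.9% of all promoters. A match of letters is a description and not a binding site.

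**Figure D1:**
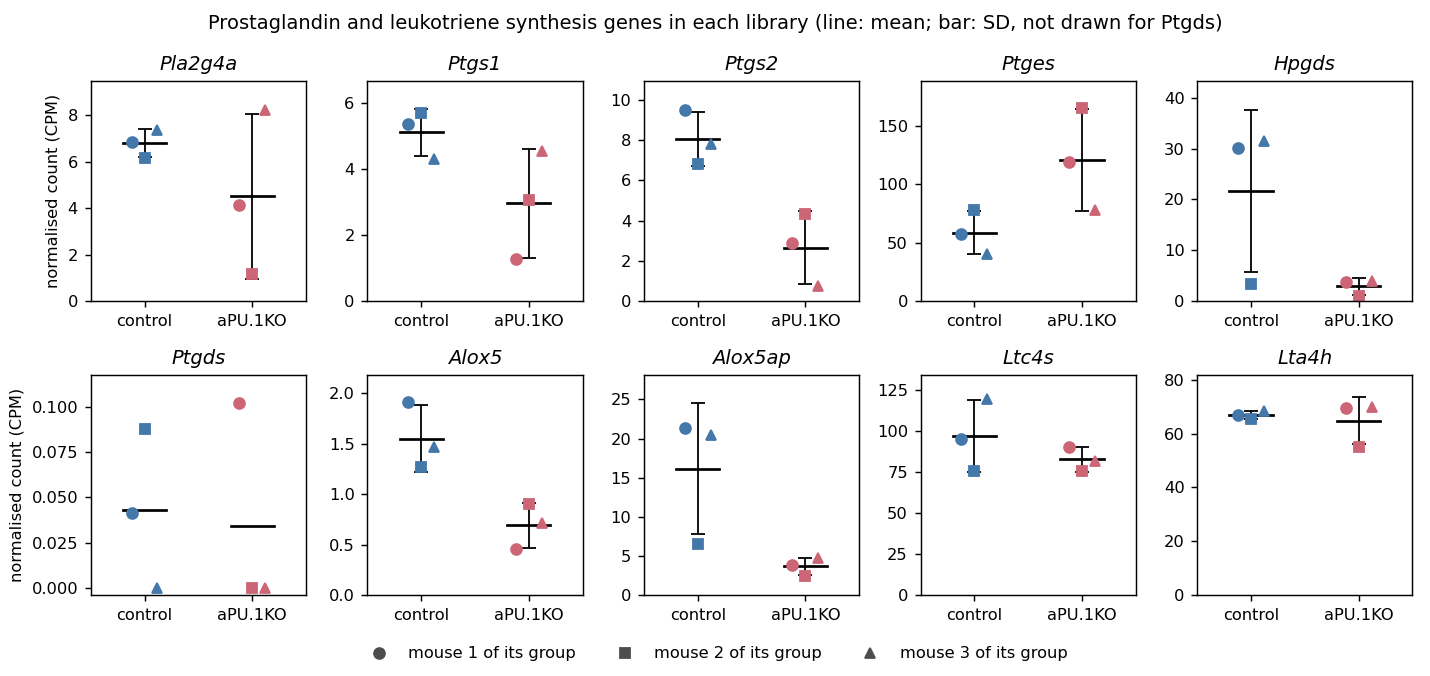
TMM-scaled counts (CPM) of each of the 10 genes in each library (control in blue, aPU.1KO in red, symbol by mouse number within the group), with the mean as a line and the SD as a bar, on axes that start at about 0. Every aPU.1KO mouse lies below every control mouse for Ptgs2, Alox5 and Alox5ap and above for Ptges, while the control mice of Hpgds are split, with control mouse 2 at 3.41 CPM.

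The first step of the chain had an uneven level among aPU.1KO mice. Pla2g4a, the cytosolic phospholipase A2 that releases arachidonic acid (chr1:149829618-149961290, minus strand; GRCm38 here and for the genes that follow), was at 6.83, 6.17 and 7.38 CPM in control mice 1, 2 and 3 and at 4.12, 1.18 and 8.24 CPM in aPU.1KO mice 1, 2 and 3. The control mice were close together, whereas aPU.1KO mouse 3 was above all of them and aPU.1KO mouse 2 far below, so the groups overlapped. The log2 fold change was -0.59 (SE 0.58, adjusted p = 0.553 by edgeR's quasi-likelihood test), and leaving out 1 mouse at a time moved it between -1.37 and -0.14.

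Both cyclooxygenases had lower mean levels in aPU.1KO adipocytes, with a separation of the groups for the inducible one. Ptgs2 (cyclooxygenase-2, the form induced by inflammatory and lipid signals; chr1:150100031-150108227, plus strand) was at 9.49, 6.83 and 7.81 CPM in the control mice and at 2.90, 4.34 and 0.758 CPM in the aPU.1KO mice. The groups did not overlap, which was so in this direction for 3 of the 9 members tested (Ptgs2, Alox5 and Alox5ap) and for 15.5% of all genes. Its log2 fold change was -1.59 (SE 0.52), a level 3.02-fold lower, with an adjusted p of 0.125 by edgeR's quasi-likelihood test and of 0.0249 by DESeq2. Over 14 alternative settings the adjusted p of Ptgs2 lay between 0.0249 and 0.408, the highest without control mouse 1. With DESeq2 and 1 mouse left out it ranged from 0.00201 to 0.266, over 0.05 without control mouse 1, control mouse 3 or aPU.1KO mouse 1.

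Ptgs1 (cyclooxygenase-1, the constitutive form; chr2:36230426-36252272, plus strand) was at 5.36, 5.69 and 4.32 CPM in the control mice and at 1.27, 3.07 and 4.55 CPM in the aPU.1KO mice. The groups overlapped, since aPU.1KO mouse 3 was above control mouse 3, and the log2 fold change was -0.79 (SE 0.42, adjusted p = 0.282 by edgeR's quasi-likelihood test and 0.241 by DESeq2). With 1 mouse left out it ran from -1.23 to -0.44, and DESeq2 gave adjusted p values between 0.0339, without aPU.1KO mouse 3, and 0.627. The balance of the pair leaned to Ptgs2 in 5 libraries and to Ptgs1 in 1. It was not equal in those 5, since the intervals of control mice 1 and 2 did not overlap. Of the counts of both genes, Ptgs2 made up 63.9% in control mouse 1 (95% Wilson interval 61 to 66.7), 54.5% in control mouse 2 (48.8 to 60.2) and 64.4% in control mouse 3 (58.9 to 69.5). In the aPU.1KO mice the share was 69.5% (58.9 to 78.4), 58.5% (50.9 to 65.8) and 14.3% (8.99 to 22), with only 16 counts of Ptgs2 in aPU.1KO mouse 3, and the intervals cover counting error only. The log2 ratio of Ptgs2 to Ptgs1 was 0.65 ± 0.33 in control and -0.29 ± 1.98 in aPU.1KO mice (SD, n = 3 each; two-sided exact permutation p = 0.7, the smallest that 3 against 3 allows being 0.1). Without aPU.1KO mouse 3 the difference of -0.94 turned to 0.19.

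Of the terminal prostaglandin synthases among the members, Ptges had a higher mean level and Hpgds a lower one, neither past the adjusted threshold of edgeR, and Ptgds was near absence. Ptges, the microsomal prostaglandin E synthase that works with cyclooxygenase-2 (chr2:30889471-30929863, minus strand), was at 57.7, 78.0 and 40.8 CPM in the control mice and at 119, 165 and 78.2 CPM in the aPU.1KO mice. The groups did not overlap, by a narrow margin between control mouse 2 and aPU.1KO mouse 3, and 16.7% of all genes were separated in this direction. The log2 fold change was 1.04 (SE 0.32), a level 2.05-fold higher, with an adjusted p of 0.114 by edgeR's quasi-likelihood test and of 0.016 by DESeq2. With 1 mouse left out it stayed between 0.75 and 1.28, and over 14 alternative settings the adjusted p lay between 0.016 and 0.389. With DESeq2 and 1 mouse left out it ranged from 0.0011 to 0.149, under 0.05 only without control mouse 2 or aPU.1KO mouse 3.

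Hpgds, the glutathione-dependent prostaglandin D synthase of hematopoietic cells (chr6:65117293-65144908, minus strand), was at 30.1, 3.41 and 31.5 CPM in the control mice and at 3.76, 0.994 and 3.98 CPM in the aPU.1KO mice. Control mouse 2 lay within the range of the aPU.1KO mice, so the groups overlapped, and the other control mice were far above it. The log2 fold change was -2.91 (SE 0.87), a level 7.51-fold lower and the largest difference of the 9, with an adjusted p of 0.108 by edgeR's quasi-likelihood test and of 0.0318 by DESeq2. The call turned on single mice. With edgeR the adjusted p was 0.0139 without control mouse 2 and 0.38 without control mouse 1. With DESeq2 it ranged from 3.78e-09 to 0.314 with 1 mouse left out, under 0.05 only without control mouse 2, and leaving out any aPU.1KO mouse also ended the call.

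Ptgds, the lipocalin-type prostaglandin D synthase (chr2:25466709-25470046, minus strand), had 3, 2 and 0 counts in the control libraries and 2, 0 and 0 counts in the aPU.1KO libraries. All 6 values were at or under a floor of 3 counts, which corresponds to between 0.0413 and 0.152 CPM, so the gene was not tested and no fold is given. Ptges and Hpgds use the same substrate, and their log2 ratio within a library was 1.94 ± 2.24 in control mice and 5.53 ± 1.60 in aPU.1KO mice. The difference of 3.60 had an exact permutation p of 0.2 (0.5 after adjustment over the 5 ratios computed), and with 1 mouse left out it ran from 2.69 to 4.88. The ratio of Hpgds to Ptgds counts among those 5, but since Ptgds was at the floor in every library its value is not given.

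Both components that make leukotriene A4 were below every control mouse in every aPU.1KO mouse. Alox5, the 5-lipoxygenase (chr6:116410077-116461178, minus strand), was at 1.91, 1.27 and 1.47 CPM in the control mice and at 0.457, 0.904 and 0.710 CPM in the aPU.1KO mice, which were 9 to 20 counts per library. The log2 fold change was -1.17 (SE 0.34), a level 2.25-fold lower, with an adjusted p of 0.106 by edgeR's quasi-likelihood test and of 0.0589 by DESeq2. It did not have 10 counts in every library and so had no value under that filter.

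Alox5ap, which encodes FLAP, the membrane protein that presents arachidonic acid to 5-lipoxygenase (chr5:149264767-149288153, plus strand), was at 21.4, 6.52 and 20.5 CPM in the control mice and at 3.86, 2.49 and 4.69 CPM in the aPU.1KO mice. Control mouse 2 was again the lowest control, but here it stayed above the aPU.1KO mice. The log2 fold change was -2.14 (SE 0.48), a level 4.40-fold lower, with an adjusted p of 0.0786 by edgeR's quasi-likelihood test and of 0.000190 by DESeq2. With edgeR the adjusted p ranged from 0.00618 without control mouse 2 to 0.313 without control mouse 1, and 2 members (Hpgds and Alox5ap, against 6.93% of all genes lower) passed without control mouse 2. With DESeq2, Alox5ap passed with each of the 6 mice left out in turn, at adjusted p values between 1.65e-15 and 0.0265. The log2 ratio of Alox5ap to Alox5 was 3.20 ± 0.76 in control and 2.38 ± 0.83 in aPU.1KO mice, a difference of -0.82 (exact permutation p = 0.3, adjusted 0.5) that ran from -1.25 without control mouse 2 to -0.35 without aPU.1KO mouse 2.

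The enzymes that use leukotriene A4 were the least different members. Ltc4s, leukotriene C4 synthase, which joins leukotriene A4 to glutathione (chr11:50236461-50238616, minus strand), was at 95.6, 75.9 and 120 CPM in the control mice and at 90.7, 75.7 and 82.0 CPM in the aPU.1KO mice. The groups overlapped, and the log2 fold change was -0.23 (SE 0.17, adjusted p = 0.424 by edgeR's quasi-likelihood test and 0.45 by DESeq2). Lta4h, leukotriene A4 hydrolase, which makes leukotriene B4 (chr10:93453411-93484875, plus strand), was at 67.0, 65.4 and 68.3 CPM in the control mice and at 69.6, 54.9 and 70.1 CPM in the aPU.1KO mice. Only aPU.1KO mouse 2 was below the control range, and the log2 fold change of -0.04 (SE 0.11, adjusted p = 0.818 by edgeR's quasi-likelihood test) became 0.06 without that mouse. The log2 ratio of Ltc4s to Lta4h was 0.51 ± 0.30 in control and 0.36 ± 0.12 in aPU.1KO mice, a difference of -0.16 (exact permutation p = 0.5, adjusted 0.625) that ran from -0.30 without control mouse 2 to -0.01 without control mouse 3.

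Since control mouse 2 stood apart, all 9 values were also taken without it. The log2 fold changes were then -0.66 for Pla2g4a, -0.72 for Ptgs1, -1.71 for Ptgs2, 1.28 for Ptges, -3.42 for Hpgds, -1.30 for Alox5, -2.52 for Alox5ap, -0.39 for Ltc4s and -0.07 for Lta4h. Ptges had an adjusted p of 0.071 and Alox5 of 0.0939 by edgeR's quasi-likelihood test in that setting.

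**Figure D2:**
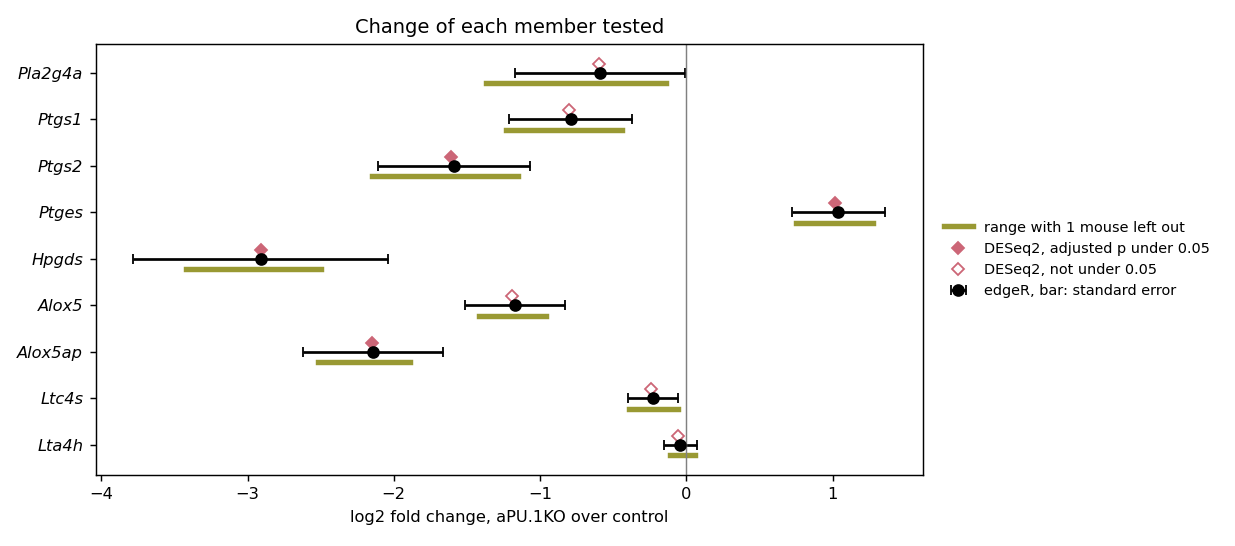
Log2 fold change (aPU.1KO over control, horizontal axis) of the 9 members tested, with the edgeR value and its standard error in black, the DESeq2 value as a red diamond that is filled where its adjusted p is under 0.05, and the range with 1 mouse left out as an olive bar. The olive bars of all members but Lta4h stay on 1 side of 0, among them Hpgds (-3.42 to -2.50) and Alox5ap (-2.52 to -1.89). Those of Pla2g4a (-1.37 to -0.14) and Ltc4s (-0.39 to -0.06) come near 0, and that of Lta4h crosses it.

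Of the members, 3 share exon sequence with a gene on the other strand, by 148 bp for Ptgs1, 189 bp for Alox5ap and 268 bp for Ltc4s, and whether counting used strand is not given in the sources used here. Reads of those stretches could therefore belong to either gene.

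Levels were compared between members only per kilobase of merged exon length. In control mice Ltc4s was by far the highest, at 95.8 ± 21.7 CPM per kb (SD, n = 3), followed by Ptges at 15 ± 4.74, Alox5ap at 11.3 ± 5.86 and Lta4h at 11 ± 0.244 CPM per kb, and these last 3 overlapped. Next were Hpgds at 3.37 ± 2.46, Ptgs2 at 1.76 ± 0.294, Ptgs1 at 1.32 ± 0.184 and Pla2g4a at 1.06 ± 0.0943 CPM per kb, with an overlap between Ptgs1 and Pla2g4a. The wide range of Hpgds, 0.531 to 4.91 CPM per kb, overlapped those of Alox5ap above it and of Ptgs2, Ptgs1 and Pla2g4a below it, so its rank is not firm. Alox5 was at 0.378 ± 0.0804 CPM per kb, and Ptgds was the lowest at 0.026 CPM per kb. In aPU.1KO mice Ltc4s (81.6 ± 7.41), Ptges (30.7 ± 11) and Lta4h (10.6 ± 1.41) led, and Alox5ap was at 2.59 ± 0.784 CPM per kb. Hpgds was in rank 8 instead of rank 5, at 0.453 ± 0.259 CPM per kb, where its range overlapped those of its neighbours Ptgs2 and Alox5. Taking the length of the longest transcript instead, 4 of the 10 genes kept their rank in control mice, and Lta4h stood in rank 2.

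**Figure D3:**
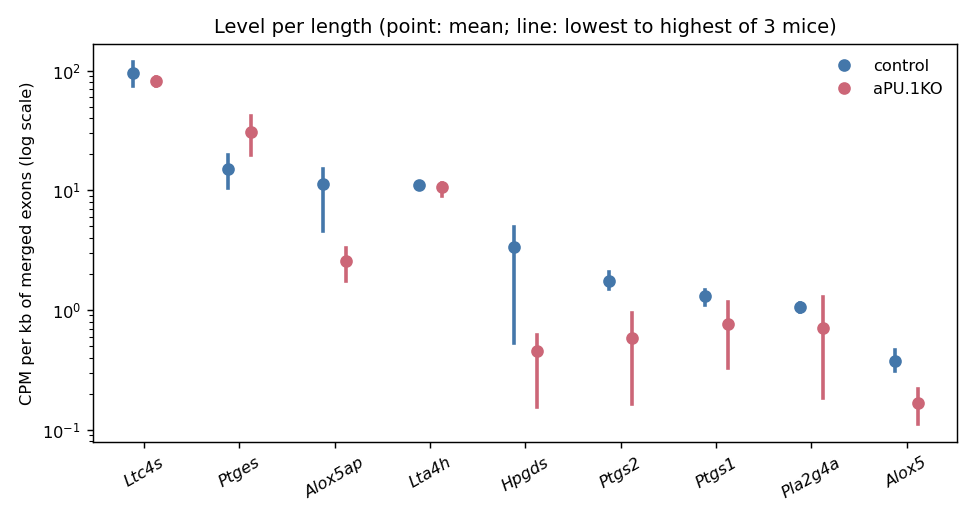
CPM per kb of merged exon length (vertical axis, log scale) of each member except Ptgds, which has libraries at 0, with the mean as a point and the lowest to highest of the 3 mice as a line, control in blue and aPU.1KO in red. Ltc4s lies above all others and Alox5 at the bottom, while Hpgds and Alox5ap have the longest lines among the control mice.

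Some of the members moved with the markers of macrophages. Of 16 macrophage markers, all tested, 14 were lower at an unadjusted p under 0.05 (13.7% of all genes), with a median log2 fold change of -2.21. Mrc1, the mannose receptor, passed the adjusted threshold (log2 fold change -1.70, adjusted p = 0.0389 by edgeR's quasi-likelihood test), the most abundant of the list were Lyz2, Csf1r and Ctss, and Cd163 (0.29) and Mertk (0.06) were not called lower, with values from -0.18 to 1.08 and from -0.08 to 0.22 when 1 mouse was left out. None of the 16 was at 0. Per 1000 CPM of these markers, a quantity computed after the values were seen, Alox5ap was at 11.2, 11.6 and 11.1 CPM in the control mice and at 9.80, 8.69 and 12.4 CPM in the aPU.1KO mice. Its highest and lowest library thus differed 1.43-fold, against 8.59-fold in plain CPM. For Hpgds the spread over libraries was 4.92-fold per marker level and 31.7-fold in plain CPM. For other members with lower mean levels the spread narrowed less: that of Alox5 was 3.97-fold per marker level against 4.18-fold in plain CPM, that of Ptgs2 7.57-fold against 12.5-fold and that of Pla2g4a 6.07-fold against 7.01-fold. For Ltc4s and Lta4h the spread was wider per marker level (5.27-fold and 5.45-fold) than in plain CPM (1.58-fold and 1.28-fold), and for Ptgs1 it was 5.13-fold against 4.48-fold. The part of RNA from macrophages in the members' differences was not tested.

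The median difference of the adipocyte markers was smaller than that of Ptges, and single markers ran from -0.77 for Lep (leptin) to 1.22 for Retn (resistin) on the log2 scale. Of 12 adipocyte markers, with Fabp4, Lpl and Plin4 the most abundant, 8 were higher, Retn among them, and Lep was lower at an unadjusted p under 0.05. Over all genes 11.9% were higher and 13.7% lower by this rule. The median of the adipocyte markers was 0.33, and their summed level was 46025 to 50126 CPM in control mice and 55753 to 60594 CPM in aPU.1KO mice. Per 1000 CPM of these markers Ptges was at 1.25, 1.56 and 0.852 CPM in the control mice and at 2.04, 2.72 and 1.40 CPM in the aPU.1KO mice. On that scale the mean was still higher, at 2.05 ± 0.657 in aPU.1KO against 1.22 ± 0.353 in control mice (SD, n = 3 each), and aPU.1KO mouse 3 lay within the range of the control mice. The spread of Ptges over libraries was 3.19-fold per adipocyte marker level and 4.04-fold in plain CPM. The part of adipocyte RNA in the difference of Ptges was not tested.

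**Figure D4:**
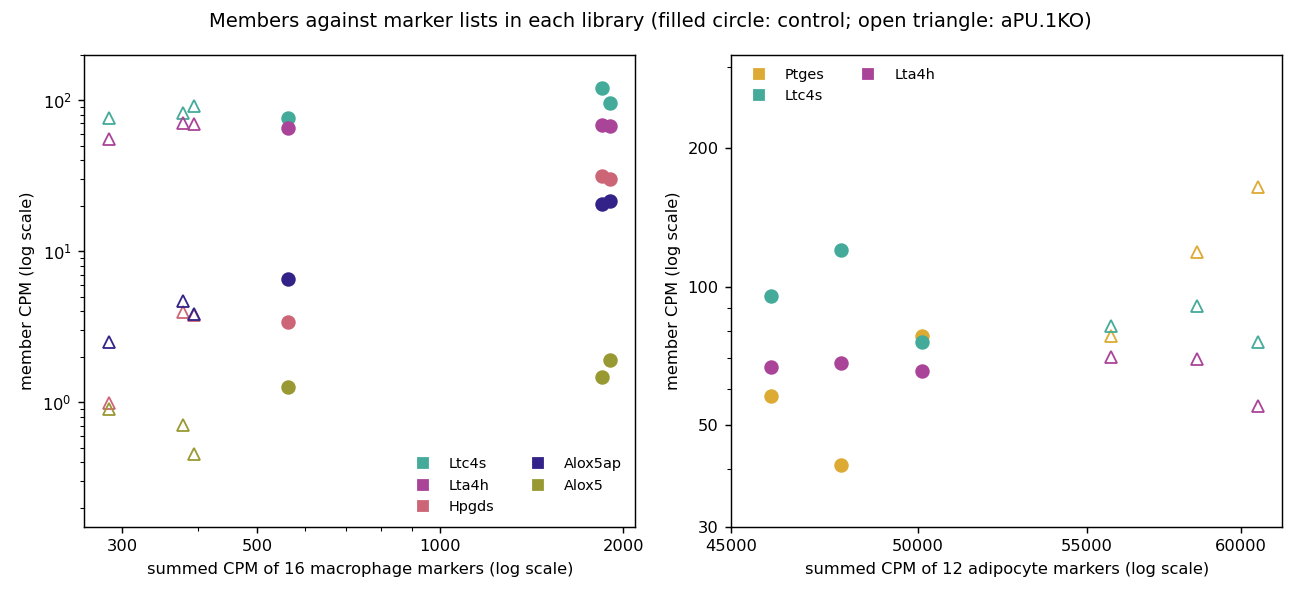
CPM of members (log scale) against the summed CPM of the 16 macrophage markers (left, log scale) and of the 12 adipocyte markers (right, log scale) in each of the 6 libraries, filled circles for control and open triangles for aPU.1KO mice. On the left, at control mouse 2 (563 CPM of macrophage markers), Alox5ap lies between the other control mice and the aPU.1KO mice and Hpgds lies within the range of the aPU.1KO mice, while Ltc4s and Lta4h stay nearly level. On the right, Ptges is highest in the libraries with the most adipocyte marker RNA.

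Other cell types that carry this pathway were measured by their markers, named by their 3 most abundant genes. Mast cell markers (Kit, Mcpt4, Gata2) summed to 27.9 to 31.2 CPM in control mice and 11.8 to 25.3 CPM in aPU.1KO mice, and 4 of 5 tested were lower at an unadjusted p under 0.05. Neutrophil markers (S100a8, Csf3r, Elane) summed to 19.7 to 40.0 and 12.8 to 19.5 CPM, with 2 lower and 1 higher of 4 tested. Most of that sum was S100a8, at 23.9, 17.5 and 35.2 CPM in the control mice and 11.7, 9.94 and 16.7 CPM in the aPU.1KO mice. The other 6 of the 10 neutrophil markers had too few counts for a test, and of these Retnlg was at 0 in every library. Dendritic cell markers (Zbtb46, Cd209a, Itgax) summed to 34.8 to 96.5 and 20.1 to 28.6 CPM, with 2 of 5 lower. B cell markers (Cd79a, Cd79b, Ms4a1) were at 2.71 to 3.65 and 1.37 to 3.32 CPM with 0 of 3 lower, and T cell markers (Cd3d, Cd4, Cd8a) at 1.93 to 3.93 and 1.07 to 1.58 CPM with 1 of 2 lower. Endothelial markers (Pecam1, Cdh5, Kdr) summed to 583 to 835 and 351 to 737 CPM with 2 of 8 lower, and adipose progenitor markers (Dcn, Col1a1, Col3a1) to 1343 to 1802 and 732 to 1053 CPM with 6 of 9 lower. Mesothelial markers (Upk3b, Wt1, Lrrn4) were at 5.08 to 18.5 and 6.76 to 9.09 CPM with 0 of 6 lower. Epididymal epithelium markers (Crisp1, Adam7, Spint4) were at 0.0438 to 1.03 and 0 to 0.915 CPM, with 5 of 8 at 0 in every library and 0 of 1 lower. Hepatocyte markers (Alb, Serpina1a, Apoa1) were lower in 8 of 8 at 40.4 to 63.3 and 18.0 to 24.5 CPM, most of it Alb, and Apoa1, Ttr and Fgg passed the adjusted threshold. In the aPU.1KO mice these 3 genes were at or under the floor of 3 counts. They had 0, 3 and 2 counts for Apoa1, 0, 0 and 2 for Ttr, and 2, 2 and 2 for Fgg. The part of these cells in the members' differences was not tested.

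The other genes of the pathway, 54 in all of which 36 had enough counts, included genes with lower levels, a few with higher levels and abundant ones that hardly differed. None of the 36 passed an adjusted p of 0.05 with edgeR's quasi-likelihood test. By the unadjusted rule 12 were lower and 4 higher, DESeq2 called 10 lower and 2 higher, and the median log2 fold change was -0.13. Over all genes tested these shares were 13.7% and 11.9% by the unadjusted rule and 8.73% and 4.69% by DESeq2, so the 4 higher genes are no more than that background, and counts of 1 or 2 in the lists that follow are too small to set against it. Genes are named here when they were among the 3 most abundant of their list, except Pla2g7, Tbxas1, Slco2a1, Ptger2, Ptgir, Dpep2 and Ptgdr2, which were picked after their values were seen.

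Among other phospholipases A2, 9 of 14 were tested, and at an unadjusted p under 0.05 there were 2 below and 1 above the control level. Plaat3, the main phospholipase A2 of adipocytes (listed under its older symbol Pla2g16), was at 992 ± 62 CPM in control mice and 1116 ± 49.5 CPM in aPU.1KO mice, with a log2 fold change of 0.17 (SE 0.10, adjusted p = 0.328 by edgeR's quasi-likelihood test). Its level per kb was 155 in control and 174 CPM per kb in aPU.1KO mice, against 1.06 and 0.706 CPM per kb for Pla2g4a. Pla2g15, a lysosomal enzyme, was lower at a log2 fold change of -0.43, and Pla2g12a, a secreted enzyme, was higher at 0.34, both at an unadjusted p under 0.05. Pla2g7, the secreted enzyme that degrades platelet-activating factor, was picked for its value of -1.92 (SE 0.49, adjusted p = 0.0898 by edgeR and 0.00112 by DESeq2). Its level per 1000 CPM of macrophage markers differed 1.82-fold over the 6 libraries, against 8.95-fold in plain CPM.

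Among other prostanoid synthases, 6 of 7 were tested and 1 was lower. The 3 most abundant hardly differed: Akr1b3, an aldose reductase that also makes prostaglandin F2 alpha, had a log2 fold change of 0.04, Prxl2b (listed as Fam213b), a prostamide and prostaglandin F synthase, of -0.03, and Ptges3, the cytosolic prostaglandin E synthase also known as the HSP90 cochaperone p23, of 0.24. The lower gene was Tbxas1, thromboxane A synthase, picked for its value, at 24.1, 6.13 and 24.1 CPM in the control mice and 4.93, 3.62 and 4.03 CPM in the aPU.1KO mice. The groups did not overlap, control mouse 2 was the lowest control, and the log2 fold change was -2.12 (SE 0.51, adjusted p = 0.0811 by edgeR and 0.000378 by DESeq2). Per 1000 CPM of macrophage markers Tbxas1 was at 12.6, 10.9 and 13.0 CPM in control mice and 12.5, 12.6 and 10.6 CPM in aPU.1KO mice, a spread of 1.23-fold against 6.66-fold in plain CPM.

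Genes of prostanoid transport and breakdown, all 6 tested, had 1 lower and 2 higher. Hpgd, the dehydrogenase that inactivates prostaglandins, had a log2 fold change of -0.18 (SE 0.13), Cbr1, a carbonyl reductase, of 0.24 (SE 0.07) and Ptgr2, a prostaglandin reductase, of 0.29 (SE 0.08, adjusted p = 0.105 by edgeR's quasi-likelihood test and 0.0338 by DESeq2). Slco2a1, the prostaglandin transporter, was the lower one, at -1.28 (SE 0.28, adjusted p = 0.0785 by edgeR and 0.00126 by DESeq2). Of 9 prostanoid receptors 6 were tested and 3 were lower. Ptger3, the E2 receptor of adipocytes that lowers cyclic AMP, was the most abundant, at 104 CPM in control mice and 116 CPM in aPU.1KO mice (log2 fold change 0.15, SE 0.12). Ptger4, an E2 receptor that raises cyclic AMP, was at 20.8, 20.7 and 18.5 CPM in control mice and 9.15, 16.0 and 7.91 CPM in aPU.1KO mice, with no overlap (log2 fold change -0.86, adjusted p = 0.112 by edgeR's quasi-likelihood test and 0.0209 by DESeq2). Ptgfr, the F2 alpha receptor, had a log2 fold change of -0.40 (SE 0.39), and the other 2 lower receptors were Ptger2 (-0.98) and Ptgir, the prostacyclin receptor (-1.26). Ptgdr2, a receptor of prostaglandin D2, was at 0 in every library.

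On the leukotriene side, 6 of 7 genes of conversion and breakdown were tested, with 4 lower and 1 higher. Mgst3, a microsomal glutathione transferase able to make leukotriene C4, was at 126, 129 and 141 CPM in control mice and 179, 196 and 174 CPM in aPU.1KO mice, with no overlap (log2 fold change 0.47, SE 0.08, adjusted p = 0.0724 by edgeR's quasi-likelihood test and 0.000154 by DESeq2). Ggt5 and Dpep1, which turn leukotriene C4 into D4 and D4 into E4, were at -0.57 and -0.81 on the log2 scale, with no overlap of the groups. Their adjusted p values were 0.0934 and 0.083 by edgeR's quasi-likelihood test and 0.0156 and 0.00392 by DESeq2. Dpep2, a related dipeptidase, was at -2.66. Per 1000 CPM of macrophage markers Dpep2 still differed 3.18-fold over the libraries, against 20.5-fold in plain CPM. The groups overlapped for Dpep2, as they did for Hpgds, because control mouse 2 was at 2.93 CPM. Of 6 other lipoxygenases 2 were tested and neither passed the unadjusted threshold, with imprecise log2 fold changes of 0.03 for Alox12 (SE 0.63, -0.99 to 0.47 with 1 mouse left out) and -0.10 for Alox15 (SE 0.64, -0.70 to 0.19), and Aloxe3 had too few counts. Of 5 leukotriene receptors only Cysltr1, a receptor of the cysteinyl leukotrienes, was tested, at a log2 fold change of -0.76 (SE 0.23, adjusted p = 0.113 by edgeR's quasi-likelihood test). Ltb4r1 and Cysltr2 stayed under 1 CPM in every library.

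**Figure D5:**
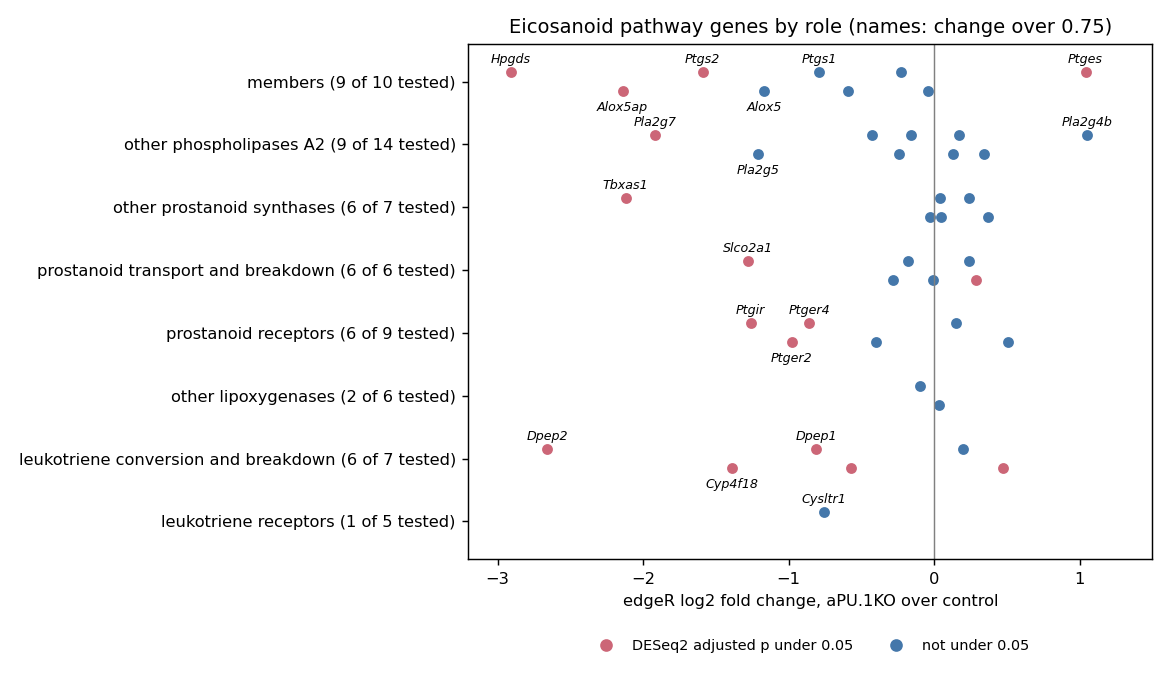
Log2 fold change (aPU.1KO over control, horizontal axis) of the 9 members and of the other 36 tested pathway genes, grouped by role, in red where DESeq2 gave an adjusted p under 0.05, with names for values past 0.75 in either direction. Most points lie within 0.75 of 0, though most of the members lie past it. The lowest values outside the members belong to Dpep2 (-2.66), Tbxas1 (-2.12) and Pla2g7 (-1.92).

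The genes with the pattern most like each of 8 members over the 6 libraries were found among 11896 genes by the root-mean-square difference of log2 CPM, each centred on its own mean. Alox5 and Ptgds were below the minimum average log2 CPM of 1 and were not compared. Alox5ap was nearest to Was, a regulator of actin in blood cells (0.07), Fcgr3, an Fc gamma receptor (0.08), and Ccl6, a chemokine (0.08), where Alox5ap itself had an SD of 1.16. Hpgds was nearest to Glipr1 (0.18), Trem2, a lipid receptor of macrophages (0.25), and Myo1f, a myosin of immune cells (0.25), beside its own SD of 1.77. Ptges was nearest to Gata6, a transcription factor (0.08), and to Acaca and Fasn, the enzymes of fatty acid synthesis (0.09 each), beside an SD of 0.66. Ptgs2 had no close match, with Sms-ps (0.32), Has1, a hyaluronan synthase (0.33), and Selp, P-selectin (0.35), beside an SD of 1.19. The nearest genes were Samd5, B3gnt3 and B3gnt2 for Ptgs1 (0.09 to 0.21), Lpar3, Ina and Svep1 for Pla2g4a (0.12 to 0.18), Nle1, an unnamed gene and Acsf2 for Ltc4s (0.03 to 0.05) and Reep5, Dym and Mta3 for Lta4h (0.02 to 0.03). Over only 6 libraries such likeness is a description.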

How the data were processed

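The authors quantified reads with Salmon, summed the estimated counts of transcripts per gene and deposited these, unnormalised and as whole numbers; a Salmon version and the annotation are not given in the sources used here, and the submitters' notes name GRCm38. The gene IDs were matched to GENCODE M21 (35031 of 35122, with 0.0367% of counts unmatched). No 2 libraries of a group were alike within sampling noise (chi-square per degree of freedom at least 19).

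From these counts, genes were filtered with filterByExpr, scaled with TMM and compared with edgeR 4.0.16 in R 4.3.3 (glmQLFit defaults, glmQLFTest, Benjamini-Hochberg adjustment over 13925 genes, common biological coefficient of variation 0.194, no covariates). DESeq2 1.42.0 and limma-voom 3.58.1 were alternatives, as were other scalings and filters, and DESeq2 with each mouse left out was added after seeing the data. Ratios used 0.5 added to each count, and log2 CPM a prior count of 2. Figures used matplotlib 3.10.9.

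The members and lists were chosen with earlier results of these data known. Named are all members, Spi1, the 3 most abundant genes of each list, genes past an adjusted p of 0.05 and the 3 most alike genes per member with an average log2 CPM of at least 1. Pla2g7, Tbxas1, Slco2a1, Ptger2, Ptgir, Dpep2, Ptgdr2, Cd163, Mertk, Lep, Retn and Retnlg fall outside this rule and were named after their values were seen. Libraries held 20550252 to 69283842 counts, so that 3 counts correspond to at most 0.152 CPM. On simulated data with 200 changed genes among 13753, edgeR called 189 and 4 unchanged ones, DESeq2 184 and 11. All planted changes had the same large size, the spread of each gene followed the average trend, and no simulated mouse stood apart. The real libraries differ from this, so these counts check the code and do not give the power or false calls of either test here.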

Additional observations from a re-analysis of the deposited data

How the results depend on the processing

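Scaling by RLE or upper quartile, robust dispersion, limma-voom and the option legacy = FALSE changed no member's direction or call. With edgeR 0 members passed an adjusted p of 0.05, with DESeq2 4, with 1 mouse left out 0 to 2, and with DESeq2 and 1 mouse left out, added after the data were seen, 1 to 4, while all genes called by DESeq2 in those settings numbered from 401 (without control mouse 1) to 2382 (without control mouse 2). Over all genes edgeR called 33, DESeq2 1869, edgeR with at least 10 counts in every library 5 and with no filter 146, and with 1 mouse left out 0 (without control mouse 1) to 1193 (without control mouse 2). For the other pathway genes the counts were 0, with DESeq2 12, and 0 to 7 with 1 mouse left out. For the cell type markers they were 4, with DESeq2 40, with at least 10 counts 0, and 0 to 30 with 1 mouse left out. With 1 mouse left out the log2 fold change of Lta4h (-0.04) ran from -0.11 to 0.06, reversed without aPU.1KO mouse 2 with edgeR and with DESeq2, and the log2 ratio of Ptgs2 to Ptgs1 (-0.94) from -1.67 to 0.19, reversed without aPU.1KO mouse 3. With the longest transcript as length 4 of 10 members kept their rank. The causes were not tested. No paired analysis was run, because the labels do not say which mice share a litter and their mouse numbers differ between the groups, though they lie close together. Whether litters pair the mice is therefore unknown. The depth limits Alox5, with 9 counts in 1 library, and Ptgds.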
